A study of Mus musculus with 24 samples.

Results

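Of the 54232 genes listed for each library, 8 genes of a pair of secreted signaling systems were followed in cerebella of mice with and without spinocerebellar ataxia type 1 (SCA1) alleles. They were chosen by name, with earlier results of these data known. Bdnf and Ntf3 encode the neurotrophins BDNF and NT-3, Ntrk2 and Ntrk3 encode their receptor tyrosine kinases TrkB and TrkC, and Ngfr encodes p75, the receptor that all neurotrophins share. Cck encodes the precursor of the neuropeptide cholecystokinin, and Cckar and Cckbr encode its receptors.

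SCA1 is caused by a lengthened polyglutamine tract in ataxin-1, and phosphorylation of the serine S776 stabilizes that protein. The study asked what the loss of this site (S776A, serine to alanine) does on each allele, and sequenced RNA of the cerebellum of 24 mice aged 6 weeks, 1 library per mouse. All mice carried edited or unedited Atxn1 at its own locus, on a C57BL/6J background, so that the allele was present in every cell. The genotypes were WT (Atxn1_2Q/2Q, 8 mice), SCA1 (Atxn1_154Q/2Q, 4 mice), SCA1 S776A (Atxn1_154Q[S776A]/2Q, 4 mice), S776A double (Atxn1_154Q[S776A]/2Q[S776A], 4 mice) and WT S776A homozygous (Atxn1_2Q[S776A]/2Q[S776A], 4 mice). The S776A alleles were made by CRISPR/Cas9 with added synonymous changes and bred from more than 1 founder. Which founder line each sequenced mouse descended from is not given in the sources used here.

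Neurotrophins are made as precursors, cut by proteases, and released from neurons. BDNF acts mainly through TrkB and NT-3 mainly through TrkC, and both kinases pass the signal on through Ras and MAP kinase, PI3 kinase and phospholipase C gamma, while p75 binds mature and uncut neurotrophins. In the cerebellum, BDNF and NT-3 are known for their part in the growth and survival of granule cells and Purkinje cells. Cholecystokinin is cut from its precursor by prohormone convertases, and its receptors couple to Gq, phospholipase C beta and calcium release. Both systems have been proposed as protective in SCA1.

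Each library held between 62163600 and 88430180 fragments counted on genes. The methods name 2 sequencing batches without listing them, so the batch of each mouse was inferred from summary shares of its library. These shares use the counts of no single gene, but some depend on the gene annotation. The 16 mice of batch 1 were 4 WT and the SCA1, SCA1 S776A and S776A double mice, and the 8 mice of batch 2 were 4 WT and the WT S776A homozygous mice. Each genotype was compared with the 4 WT mice of its own batch, and the 3 genotypes with the expanded Atxn1_154Q allele share the same 4 controls. In the text, WT replicates 1 to 4 are those of batch 1 and WT replicates 5 to 8 those of batch 2. Nothing in the labels says that mice of a genotype came from separate litters, so the p-values measure the spread between these mice. Values are CPM, counts scaled to library sizes that were adjusted by TMM. Over 22502 genes, edgeR's quasi-likelihood test called a gene where its p, adjusted by Benjamini-Hochberg, was under 0.01 and its log2 fold change was beyond 0.5 in either direction.

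Atxn1, the edited gene (chr13:45549755-45965008), was detected in every mouse, and these counts do not separate its alleles. It had 50.8 ± 2.22 CPM (SD, n = 4) in WT mice of batch 1, 58.8 ± 3.65 in SCA1, 61.3 ± 4.79 in SCA1 S776A and 62.1 ± 8.27 in S776A double mice. In batch 2 it had 56.3 ± 6.07 CPM (SD, n = 4) in WT and 57.0 ± 1.34 in WT S776A homozygous mice. The libraries carried the markers of cerebellum: the summed CPM of 7 Purkinje cell genes was 6074 to 9402 and that of 6 granule cell genes 3969 to 5890.3. The sum of 5 forebrain neuron genes was 7.49 to 12.5. In whole tissue, fewer cells of a type and less RNA per cell cannot be told apart. WT S776A homozygous replicates 3 and 4 stood apart: their brainstem and midbrain neuron genes summed to 34.2 and 38.4 CPM against 24.9 and 25.0 in replicates 1 and 2, and their oligodendrocyte genes to 9135 and 9536 CPM against 7367 and 7571.

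No member was called in any comparison of genotypes. Of the 8 members, 7 passed the expression filter and Cckar did not. Among all genes tested, 0.173% were called in SCA1 against WT, 0.0133% in SCA1 S776A against WT, 0.0267% in S776A double against WT and 0.0% in WT S776A homozygous against WT. Few genes were thus called anywhere in this fit, and a count of 0 of 7 is near that background. In SCA1 against WT this fit called 39 genes and other fits up to 127, with no member among them. The mean of the 3 genotypes with Atxn1_154Q was set against WT as well, where 0.0978% of genes and no member were called.

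The 95% intervals say how large a difference the data leave room for. All 28 intervals of the 7 members in the 4 comparisons with WT lay between -0.75 and 0.69 on the log2 scale, and 2 of them did not include 0. Those 2 were Ntf3 and Cck in SCA1 mice, which were also the members with an unadjusted p under 0.05 there (2 of 7, against 8.25% of all genes). Against WT, the other genotypes had 0 of 7 members at that level. These were SCA1 S776A, S776A double and then WT S776A homozygous mice, with 3.93%, 6.93% and 9.98% of all genes at an unadjusted p under 0.05. The same was so for the mean of the expanded genotypes, against 7.67%. Each gene's spread was estimated over all mice, including WT S776A homozygous replicates 3 and 4. Without them (chosen after seeing the data), unadjusted p in SCA1 mice (edgeR) was 0.00453 for Ntf3, 0.0201 for Cckbr and 0.0222 for Cck. With all mice these were 0.0197, 0.085 and 0.0283. That of Bdnf rose from 0.7 to 0.736. For the mean of the expanded genotypes, Ntf3 had 0.022 in place of 0.064. No member was called (lowest adjusted p in SCA1 mice 0.131).

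**Figure D1:**
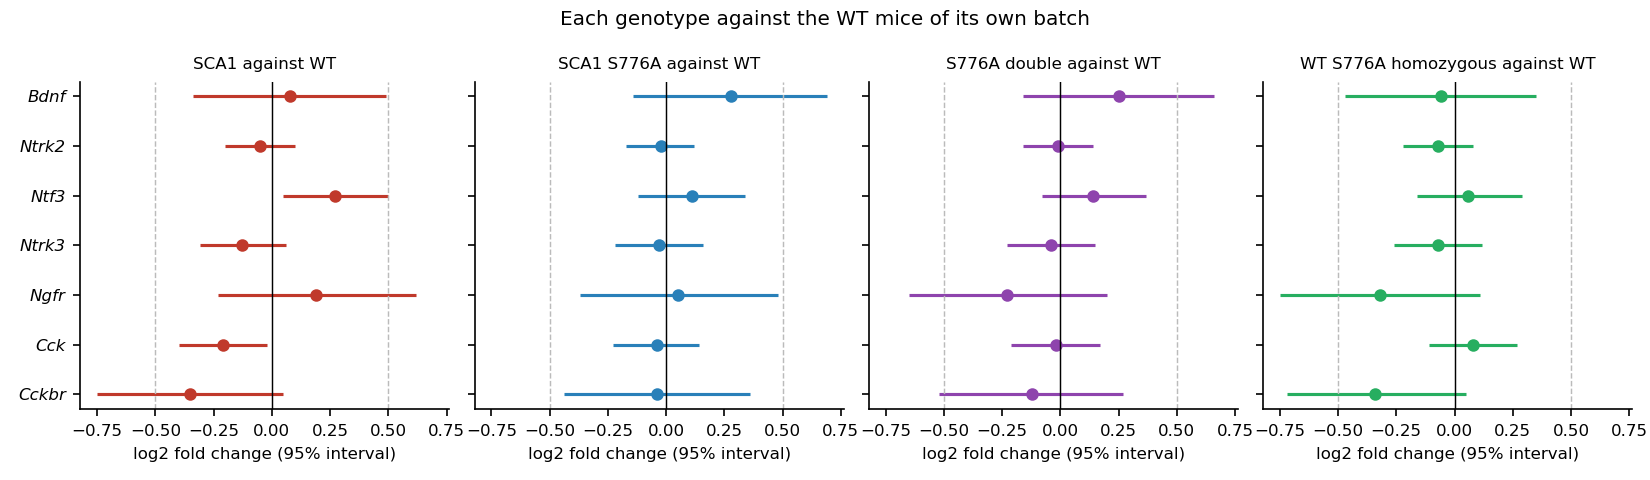
Log2 fold change (dot) with its 95% interval (line) of the 7 members tested, for each genotype against WT of the same batch (4 mice a group); dashed lines mark ±0.5. The intervals of Ntf3 and Cck in SCA1 mice are the only ones of the 28 that do not include 0.

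Ntf3, the gene of the TrkC ligand NT-3, lies on the minus strand of chromosome 6 (chr6:126101412-126166910, GRCm38). WT mice of batch 1 had 9.42, 8.5, 7.97 and 8.84 CPM, and SCA1 mice had 11.1, 10.0, 10.8 and 10.1 CPM. Every SCA1 mouse was above every WT mouse, and Ntf3 was the only member whose ranges did not overlap there (1 of 7, against 8.76% of all genes). The log2 fold change was 0.27 (standard error 0.11, 95% interval 0.05 to 0.5), with an unadjusted p of 0.0197 and an adjusted p of 0.464 in edgeR's quasi-likelihood test, so that it did not pass. By unadjusted p, Ntf3 ranked 954 of the 22502 genes. Markers of several cell types differed in the same mice. All 5 choroid plexus genes had a log2 fold change above 0 in SCA1 mice, with a median of 1.28. Their summed CPM was 876 to 5083 against 11.9 to 1708 in WT mice of batch 1, and the ranges overlapped. All 5 oligodendrocyte genes had one above 0 as well, with a median of 0.15 and sums of 5890.4 to 7255 CPM against 5453 to 6459. The 4 unipolar brush cell genes summed to 920 to 965 CPM against 805 to 869, without overlap, with 2 genes higher and 2 lower. All 4 tested forebrain neuron genes were higher, with a median of 0.23. All 7 Purkinje cell genes and all 6 inhibitory interneuron genes were lower, with medians of -0.28 and -0.14. Of the granule cell genes, 5 of 6 were lower, with a median of -0.08. Brainstem and midbrain neuron genes summed to 12.5 to 21.9 CPM against 18.1 to 23.7 in WT mice of batch 1. Of the 6 tested, 4 were higher and 2 lower, with a median of 0.54. None of these genes was called, and the part of these cells in the Ntf3 values was not tested.

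The other expanded genotypes had means between these groups. Among SCA1 S776A mice, Ntf3 had 8.88, 9.56, 10.1 and 8.98 CPM, and among S776A double mice 8.54, 10.9, 10.5 and 8.35. Both groups overlapped WT and SCA1 mice. Relative to WT the log2 fold changes were 0.11 (95% interval -0.12 to 0.34) and 0.14 (-0.08 to 0.37), and against SCA1 they were -0.16 (-0.39 to 0.06) and -0.13 (-0.36 to 0.09). The mean of the expanded genotypes stood 0.18 above WT (standard error 0.09, adjusted p = 0.68 with edgeR).

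In batch 2, WT mice had 12.9, 14.5, 15.0 and 12.6 CPM of Ntf3 and WT S776A homozygous mice had 12.5, 11.7, 15.7 and 17.6. The groups overlapped, with a log2 fold change of 0.06 (95% interval -0.16 to 0.29). The 2 highest homozygous values were those of replicates 3 and 4, the mice with the high brainstem and oligodendrocyte sums, and without them the fold change was -0.19. The part of those cells in the values was not tested.

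Bdnf, the gene of the TrkB ligand, lies on the plus strand of chromosome 2 (chr2:109674700-109727007). Its WT mice of batch 1 had 16.0, 15.8, 19.0 and 27.8 CPM, SCA1 mice 18.1, 24.8, 22.7 and 17.5. The SCA1 S776A values were 23.0, 18.0, 26.3 and 27.9 CPM and those of S776A double mice 24.4, 22.4, 20.9 and 25.9. WT replicate 4 was above all SCA1 mice and WT replicates 1 and 2 were the lowest of the batch, so each group overlapped WT. The log2 fold changes were 0.08 in SCA1 (95% interval -0.34 to 0.49), 0.28 in SCA1 S776A (-0.14 to 0.69) and 0.25 in S776A double mice (-0.16 to 0.66). With a standard error of 0.2, Bdnf was among the least precisely measured members, although each mouse had at least 1031 counts of it.

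In batch 2, Bdnf had 35.6, 26.0, 23.3 and 31.5 CPM in WT and 29.5, 18.3, 30.1 and 33.7 in WT S776A homozygous mice. The ranges overlapped, with a log2 fold change of -0.06 (95% interval -0.47 to 0.35). An antisense gene, Gm45346, shares 896 exon bases with Bdnf. In the unstranded counts, fragments that are ambiguous between genes are counted apart and added to neither gene. Counted by strand and summed, Bdnf had 1.06 times its unstranded count, and the other members had 1.0 to 1.01 times theirs. Over all genes of a library the ratio was 1.088 to 1.096.

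**Figure D2:**
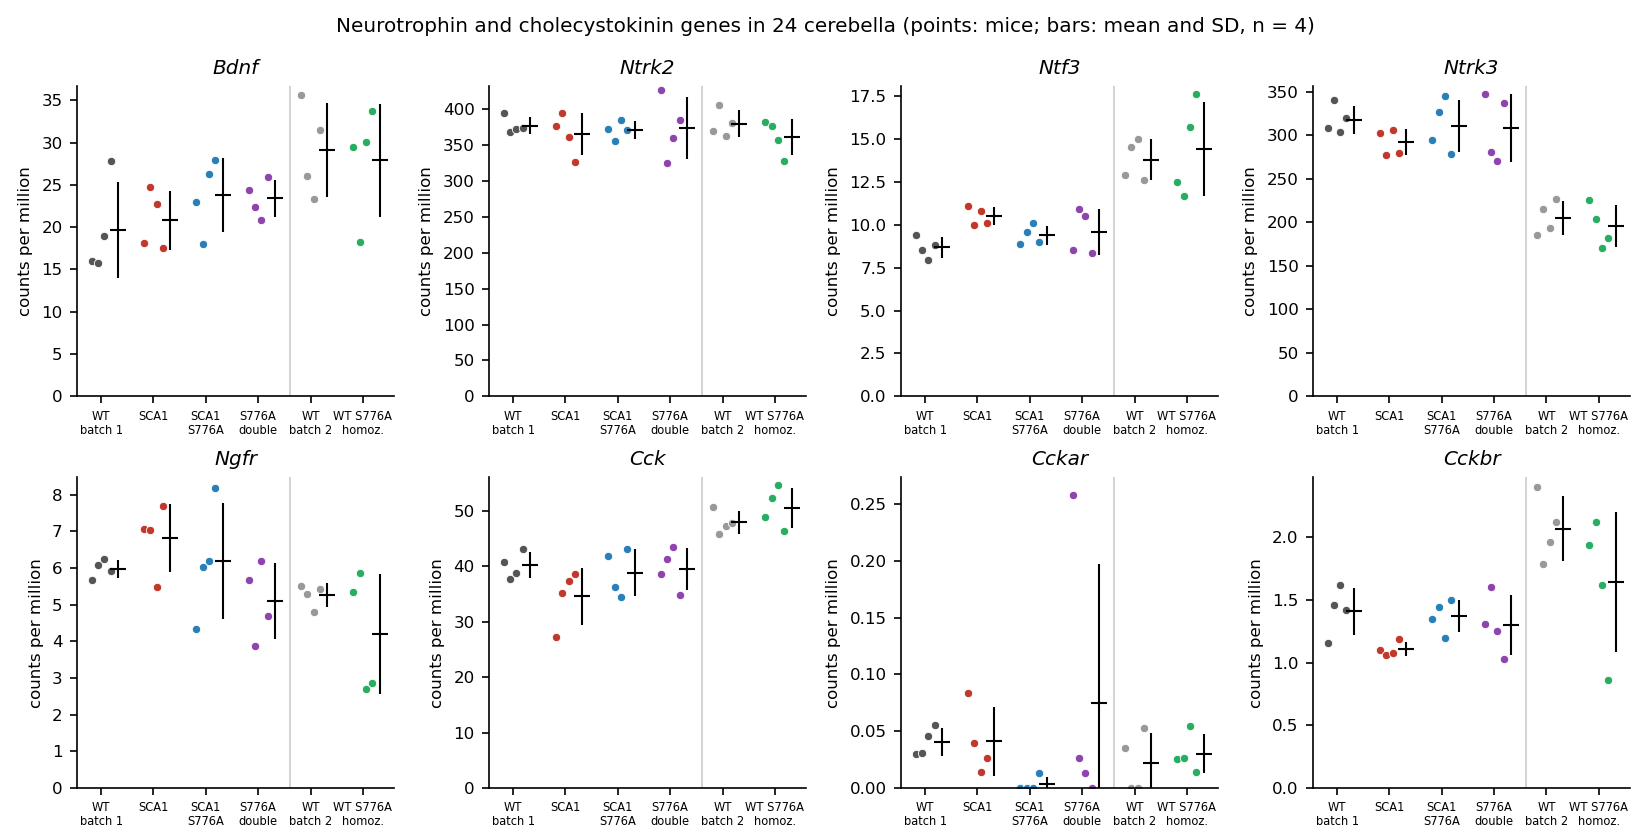
CPM of the 8 members in 24 mice, 1 point per mouse, with the mean and SD of each group of 4 at its right; the grey line separates the inferred batches. SCA1 mice lie above WT mice of batch 1 for Ntf3, the groups overlap for the other tested members against their own WT, and both groups of batch 2 lie above or below batch 1 for Ntf3, Ntrk3 and Cck.

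Ntrk2, the gene of TrkB, lies on the plus strand of chromosome 13 (chr13:58806569-59133970), the chromosome of Atxn1, with 12.8 Mb between them. It had the smallest standard error of the members tested. Its values were 394, 368, 372 and 374 CPM in WT mice of batch 1 and 376, 395, 361 and 326 in SCA1 mice. In SCA1 S776A mice it had 372, 355, 385 and 371 CPM and in S776A double mice 427, 325, 359.6 and 385. WT mice of the second batch had 369, 406, 363 and 380.1 CPM and homozygous mice 382, 377, 357 and 328. The groups overlapped in each comparison. The 4 log2 fold changes against WT were between -0.07 and -0.01 with a standard error of 0.07, and the interval farthest from 0 ended at -0.22. The counts add up all transcripts of the gene, so full-length TrkB and its truncated form without the kinase were not separated.

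Ntrk3, the gene of TrkC, lies on the minus strand of chromosome 7 (chr7:78175959-78738012). WT mice of batch 1 had 309, 340.2, 304 and 319.5 CPM and SCA1 mice 303, 277, 306 and 280.4. SCA1 S776A mice had 295, 327, 345 and 279 CPM and S776A double mice 348, 281, 271 and 337. Of the SCA1 mice, 3 of 4 were below every WT mouse, with a log2 fold change of -0.13 (95% interval -0.31 to 0.06), and the other genotypes spread over the whole WT range, with fold changes of -0.03 and -0.04. In batch 2, WT mice had 185, 215, 194 and 227 CPM and homozygous mice 226, 204, 171 and 182, a log2 fold change of -0.07 (-0.26 to 0.12).

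Ngfr, the gene of p75, lies on the minus strand of chromosome 11 (chr11:95568818-95587735). Batch 1 had 5.68, 6.07, 6.25 and 5.91 CPM in WT mice and 7.07, 7.03, 5.49 and 7.7 in SCA1 mice. Values were 4.34, 6.03, 6.19 and 8.19 CPM in SCA1 S776A mice and 5.68, 3.86, 6.18 and 4.69 in S776A double mice. WT mice were close together, SCA1 and SCA1 S776A mice spread to both sides of them, and S776A double mice lay within or below them. Fold changes on the log2 scale were 0.19 in SCA1 (95% interval -0.23 to 0.62), 0.05 in SCA1 S776A (-0.37 to 0.48) and -0.23 in S776A double mice (-0.65 to 0.2). Between S776A double and SCA1 mice the difference was -0.42 (standard error 0.21, 95% interval -0.84 to 0.01), with an adjusted p of 1.0 in edgeR.

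In batch 2, WT mice had 5.5, 5.3, 4.79 and 5.43 CPM of Ngfr, and WT S776A homozygous mice had 5.35, 5.86, 2.71 and 2.87. The homozygous group was split, with replicates 1 and 2 within or above the WT range and replicates 3 and 4 below every other mouse of the study. With all 4 mice the log2 fold change was -0.32 (95% interval -0.75 to 0.11), and without replicates 3 and 4 it was 0.09. Those mice also had lower summed interneuron genes, 1246 and 1041 CPM against 1437 and 1572, beside the higher brainstem and oligodendrocyte sums given above. In SCA1 mice, all 6 interneuron genes had log2 fold changes below 0 (median -0.14), while that of Ngfr was 0.19. The part of cell composition in Ngfr was not tested.

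Cck, the gene of the cholecystokinin precursor, lies on the minus strand of chromosome 9 (chr9:121489824-121495694). WT mice of batch 1 had 40.8, 37.8, 38.9 and 43.1 CPM and SCA1 mice 27.2, 35.2, 37.3 and 38.7. SCA1 replicate 1 was the lowest of all 24 mice and only replicate 4 reached into the WT range. The log2 fold change was -0.21 (standard error 0.09, 95% interval -0.4 to -0.02), with an unadjusted p of 0.0283 and an adjusted p of 0.524 in edgeR's quasi-likelihood test, so that it did not pass. Leaving out 1 mouse at a time, the fold change was between -0.28 and -0.12.

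SCA1 S776A mice had 41.9, 36.3, 34.4 and 43.1 CPM of Cck and S776A double mice 38.7, 41.4, 43.6 and 34.8. Both groups covered the WT range, with log2 fold changes against WT of -0.04 (95% interval -0.23 to 0.14) and -0.02 (-0.21 to 0.17). The log2 differences from SCA1 mice were 0.17 (-0.02 to 0.36) and 0.19 (0.0 to 0.38), the latter with an unadjusted p of 0.0452 and an adjusted p of 1.0 in edgeR. In batch 2, WT mice had 50.8, 45.8, 47.4 and 47.9 CPM and homozygous mice 48.9, 52.4, 54.7 and 46.5, and the groups overlapped (log2 fold change 0.08, -0.11 to 0.27).

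Purkinje cell genes had lower sums in the same SCA1 mice. The summed CPM of the 7 Purkinje cell genes was 8095 to 9402 in WT mice of batch 1, 6074 to 6840.2 in SCA1, 6884 to 8022 in SCA1 S776A and 6683 to 8881 in S776A double mice. The marker Itpr1 was a large part of these sums, with means of 3594 CPM in WT mice of batch 1 and 2569 in SCA1 mice. All 7 genes had a log2 fold change below 0 in SCA1 mice, with a median of -0.28, and none of the 7 was called. In SCA1 replicates 1 to 4 the sums were 6320.3, 6840.2, 6649.9 and 6074 CPM, beside Cck values of 27.2, 35.2, 37.3 and 38.7 CPM. In batch 2 the sums were 7052 to 8370.1 CPM in WT and 6356 to 7521 in WT S776A homozygous mice, with overlap. Mean Cck there was 48.0 CPM in WT and 50.6 in homozygous mice. Over all 24 mice, with batch means subtracted, the gene most like Cck among 14883 genes was Ppp1r17 (Pearson's r = 0.81). It is 1 of the 7 Purkinje cell genes, and the correlations of the others are not given here. Genes of other neurons were lower in SCA1 mice as well, all 6 inhibitory interneuron genes (median -0.14) and 5 of 6 granule cell genes (median -0.08). The part of these cells in the Cck values was not tested.

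Cckbr, the gene of the CCK2 receptor, lies on the plus strand of chromosome 7 (chr7:105425731-105470898) and was low, with 61 to 206 counts per mouse. WT mice of batch 1 had 1.16, 1.46, 1.62 and 1.42 CPM and SCA1 mice 1.1, 1.06, 1.08 and 1.19. Only WT replicate 1 fell within the SCA1 range. The log2 fold change was -0.35 (standard error 0.19, 95% interval -0.75 to 0.05, adjusted p = 0.678 in edgeR). SCA1 S776A mice had 1.35, 1.44, 1.2 and 1.5 CPM and S776A double mice 1.31, 1.6, 1.25 and 1.03, with fold changes against WT of -0.04 (-0.44 to 0.36) and -0.12 (-0.52 to 0.27).

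Every SCA1 S776A mouse was above every SCA1 mouse for Cckbr, the only member without overlap in that comparison (1 of 7, against 3.41% of all genes). The difference was 0.31 on the log2 scale (95% interval -0.09 to 0.71, adjusted p = 1.0 in edgeR), and its interval includes 0. The WT mice of batch 2 had 2.4, 1.79, 1.96 and 2.12 CPM of Cckbr and homozygous mice 1.94, 2.12, 1.62 and 0.859. The log2 fold change was -0.34 (-0.72 to 0.05) with all mice and -0.03 without homozygous replicates 3 and 4, of which replicate 4 was the lowest mouse of the study.

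Cckar, the gene of the CCK1 receptor, lies on the minus strand of chromosome 5 (chr5:53697776-53707705) and was near the limit of detection. It had 0 to 22 counts per mouse, with no count in 6 mice and at least 3 counts in 8. A count of 3 corresponds to 0.035 to 0.0464 CPM at these depths. WT mice of batch 1 had 2, 2, 3 and 4 counts, SCA1 mice 6, 3, 1 and 2, SCA1 S776A mice 0, 0, 0 and 1, and S776A double mice 22, 2, 1 and 0. In batch 2, WT mice had 3, 0, 0 and 4 counts and homozygous mice 2, 2, 4 and 1. Apart from S776A double replicate 1, no mouse was above 6 counts, and no fold change is given because most mice were at or near the floor. A difference in Cckar was not detectable at this depth.

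Differences between the mice of the 3 expanded genotypes were tested directly. In SCA1 S776A against SCA1, no member was called (0.00444% of all genes) and 0 of 7 had an unadjusted p under 0.05 (4.35% of all genes). In S776A double against SCA1, no member was called (0.0% of all genes), 1 of 7, Cck, had an unadjusted p under 0.05 (3.64%), and no member's ranges were free of overlap (2.7%). In S776A double against SCA1 S776A, the step that adds S776A to the 2Q allele, no member was called (0.0%) and 0 of 7 had an unadjusted p under 0.05 (2.96%), with fold changes of -0.28 to 0.03. That difference was set against the one between WT S776A homozygous mice and WT, in which S776A is on both 2Q copies and not on 1, and which lies in the other batch, so that the edits compared are not the same. No difference passed the test, with 0 members called (0.0%), 0 of 7 at an unadjusted p under 0.05 (2.88%) and differences of -0.05 to 0.26. The ranges of the members overlapped WT in the SCA1 S776A, the S776A double and the homozygous mice, against 4.39%, 7.11% and 2.65% of all genes without overlap.

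The WT mice of the inferred batches had larger fitted differences than any pair of genotypes compared for 5 of the 7 members, Ntf3, Ntrk3, Bdnf, Cckbr and Cck, and whether these sizes differ was not tested. Between WT mice of batch 2 and batch 1, 2 of 7 members were called, against 17.6% of all genes, and 5 of 7 did not overlap, against 46.7%. Ntf3 was higher in batch 2 by 0.66 (standard error 0.11, adjusted p = 2.99e-05 in edgeR) and Ntrk3 was lower there, at -0.63 on the log2 scale (adjusted p = 6.04e-06 in edgeR, standard error 0.09). The log2 differences of Bdnf, Cckbr and Cck were 0.56, 0.55 and 0.26 and did not pass. These mice share genotype, age and tissue. For Ngfr and Ntrk2 the differences were -0.19 and 0.01, smaller than the largest between genotypes. Had all 8 WT mice been pooled with no batch term, the SCA1 fold change of Ntf3 would have been -0.1 in place of 0.27, that of Bdnf -0.23 in place of 0.08 and that of Ntrk3 0.16 in place of -0.13. In the same setting Cckbr would have had -0.65 in place of -0.35 (adjusted p = 0.136 in edgeR) and Cck -0.35 in place of -0.21 (adjusted p = 0.0838 in edgeR).

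Levels were compared between genes only per length, as CPM per kilobase of annotated exon. In WT mice of batch 1, Cck was highest with 30.8 ± 1.79 (SD, n = 4), followed by Ntrk2 with 19.5 ± 0.601, Ntrk3 with 10.5 ± 0.532 and Ntf3 with 5.07 ± 0.355. Below them were Bdnf with 3.16 ± 0.909, Ngfr with 1.73 ± 0.0703, Cckbr with 0.493 ± 0.0661 and Cckar with 0.0109 ± 0.00333. No 2 neighbours in this order overlapped between mice. In WT mice of batch 2 the order was the same except that Ntf3 (8.03 ± 0.696, SD, n = 4) stood above Ntrk3 (6.81 ± 0.647), and their ranges overlapped. The exon length of a gene joins all its annotated transcripts, from 1305 bases for Cck to 30170 for Ntrk3, so the level of a gene with long alternative exons is understated on this scale.

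**Figure D3:**
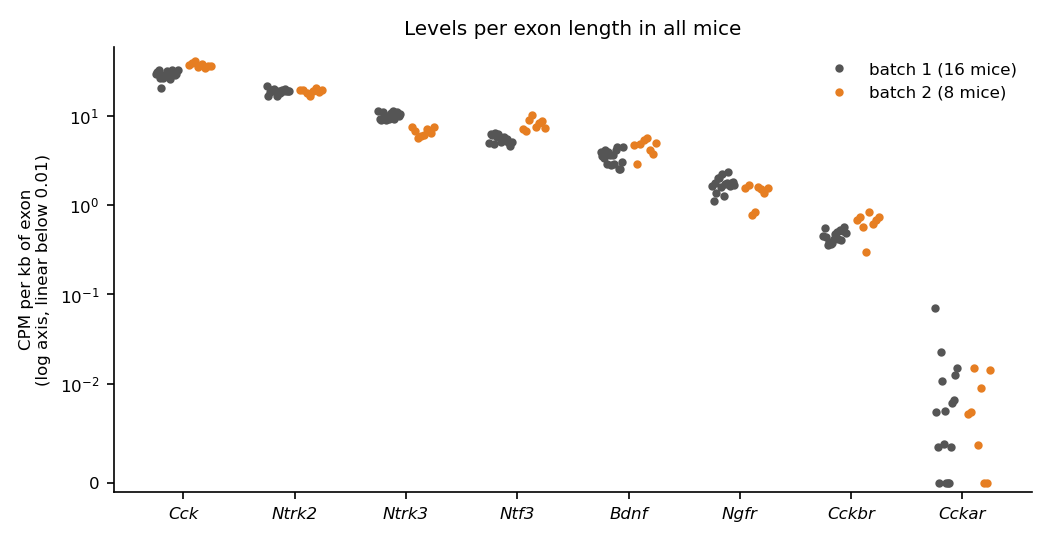
CPM per kilobase of exon of the 8 members in the 16 mice of batch 1 (grey) and the 8 mice of batch 2 (orange), on a log axis that is linear below 0.01, genes in order of mean level. Cck and Ntrk2 are highest, Ntf3 and Ntrk3 change places between batches, and Cckar is 0 in 6 mice.

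Because Ntf3 and Cck were the members with the lowest p in SCA1 mice, the starts of both genes are shown with the letters just before and after the first base. The sequences are those of RefSeq on GRCm38.p6, of the minus strand, and capitals mark the E-box CACGTG. For Ntf3, 1 of 2 promoters is printed, and the other (chr6:126164911-126165210) holds no E-box.

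Ntf3 (chr6:126166695-126166994): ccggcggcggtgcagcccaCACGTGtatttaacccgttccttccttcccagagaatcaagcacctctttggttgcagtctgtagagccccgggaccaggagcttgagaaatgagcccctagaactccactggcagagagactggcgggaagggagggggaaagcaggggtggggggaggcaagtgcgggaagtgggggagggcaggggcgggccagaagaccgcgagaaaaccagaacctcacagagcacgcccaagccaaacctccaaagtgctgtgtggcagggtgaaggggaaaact
Cck (chr9:121495645-121495944): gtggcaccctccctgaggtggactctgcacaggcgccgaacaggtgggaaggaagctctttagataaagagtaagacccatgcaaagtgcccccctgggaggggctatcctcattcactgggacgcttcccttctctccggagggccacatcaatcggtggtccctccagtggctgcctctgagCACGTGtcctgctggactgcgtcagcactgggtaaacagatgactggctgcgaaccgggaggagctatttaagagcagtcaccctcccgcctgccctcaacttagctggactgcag

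RefSeq promoters were found for 6 of the 8 members, 13 in all, with 7 for Bdnf. The motifs below were searched on both strands: the octamers TGAATGAA and TGAATGGA bound by capicua, a repressor that forms a complex with ataxin-1, the cyclic AMP response element TGACGTCA, and the E-box CACGTG. Of 32851 promoters of this length, 1.3% held the first, 1.21% the second, 1.79% the third and 7.15% the E-box. The E-box was found in 1 of the 2 promoters of Ntf3 and in the only promoter each of Cck and Cckbr. The other motifs were found in none of the 13. A match or its absence in these windows is a description of letters and says nothing of binding.

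The genes around the members in both pathways were described by 6 lists of 89 genes. Of these, 88 were tested and the CCK-receptor ligand gene Gast was not. None was called in any comparison of genotypes in the main fit. In SCA1 against WT, 10 of 88 had an unadjusted p under 0.05, 3 higher and 7 lower, with a median log2 fold change of -0.02 over the 88 genes and 0.002 over all genes. The counts were 3 of 88 in SCA1 S776A, 4 in S776A double and 9 in WT S776A homozygous mice, beside the shares of all genes given above.

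The 11 genes of CCK receptor coupling held the pathway gene with the lowest p in SCA1 mice. Plcb3, a phospholipase C beta isoform, had 92.0 ± 7.58 CPM (SD, n = 4; 84.7 to 102) in WT mice of batch 1 and 56.2 ± 1.33 (54.4 to 57.7) in SCA1 mice, without overlap. Its log2 fold change was -0.71 (standard error 0.15, 95% interval -1.03 to -0.39, adjusted p = 0.0374 in edgeR), which missed the threshold of 0.01. SCA1 S776A mice had 73.1 ± 7.03 CPM and S776A double mice 65.8 ± 1.91 (SD, n = 4), with fold changes against WT of -0.33 and -0.48. In batch 2, without an expanded allele, WT mice had 72.0 ± 5.37 CPM and WT S776A homozygous mice 59.0 ± 19.9 (SD, n = 4). Their log2 fold change was -0.29 (95% interval -0.6 to 0.03). Plcb3 was called when WT S776A homozygous replicates 3 and 4 were left out (log2 fold change -0.72, adjusted p = 3.12e-07 in edgeR), mice that enter this comparison only through the shared estimate of spread. That setting was chosen after seeing the data. Plcb3 was also called by DESeq2 with a batch term (adjusted p = 0.000885) and by ComBat-seq then DESeq2 (adjusted p = 1.47e-05). The same was so in edgeR with only the groups compared (adjusted p = 1.2e-05). Itpr1 encodes the receptor through which inositol trisphosphate releases calcium and is itself a Purkinje cell marker. In SCA1 mice it had a log2 fold change of -0.48 (95% interval -0.83 to -0.14, adjusted p = 0.325 in edgeR) and did not pass. In WT S776A homozygous mice its log2 fold change was -0.3 (95% interval -0.64 to 0.04). The Purkinje cell sums given above were lower in SCA1 mice, but they include Itpr1 and are no separate measure of it. The part of Purkinje cells in the Plcb3 and Itpr1 values was not tested.

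Of 15 genes that process or release neurotrophins and prohormones, 1 had an unadjusted p under 0.05 in SCA1 mice. This was Pcsk6, a proprotein convertase, with 119 ± 7.77 CPM (SD, n = 4) in WT mice of batch 1 and 94.5 ± 7.73 in SCA1 mice. Its log2 fold change was -0.33 (95% interval -0.54 to -0.12, adjusted p = 0.233 in edgeR). Of the 10 other neurotrophin ligands, receptors and coreceptors, Sorcs3 and Sorl1 of the sortilin family had an unadjusted p under 0.05 there. The fold changes of this list were -0.25 to 1.33, its upper end from Ntf5, which was below 1 CPM in every mouse. Among 34 Trk adaptors and effectors, 2 of 34 (Hras and Shc3) had such a p, with a median log2 fold change of -0.03 over the list, and among 7 partners of p75, 1 of 7 (Ripk2).

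The 12 genes known to respond to BDNF included immediate early genes with a wide spread between mice. In WT S776A homozygous against WT, 4 of 12 (Fos, Npas4, Nr4a1 and Vgf) had an unadjusted p under 0.05, all lower, and none was called. In SCA1 mice 2 of 12 had such a p, Fos with a log2 fold change of 1.28 and Nptx2 with -0.44. Fos alone ranged from 13.0 to 42.5 CPM in the WT mice of batch 1.

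**Figure D4:**
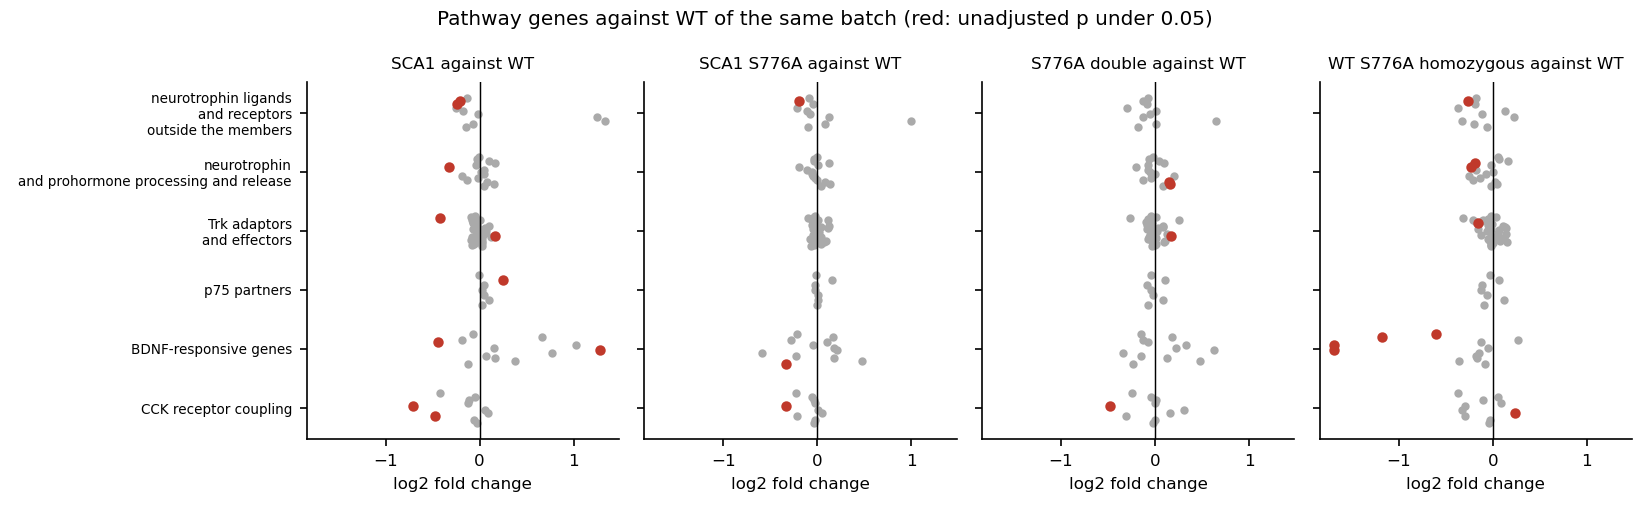
Log2 fold change against WT of the same batch for the 88 tested pathway genes, 1 point per gene, by list (rows) and genotype (panels); red points have an unadjusted p under 0.05 in edgeR's quasi-likelihood test. Plcb3 is the lowest red point of CCK receptor coupling in the SCA1 panel, and none of the points is a called gene.

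For each tested member, the genes most like it were sought by Pearson's r of log2 CPM over the 24 mice after subtracting batch means, among 14883 genes. Bdnf was most like Arl5a (r = 0.89), Nampt (0.89) and Dusp6 (0.87), the last a MAP kinase phosphatase of the BDNF-responsive list. Ntrk2 was most like Ncoa1 (0.94), Stox2 (0.93) and Synj1 (0.92), and Ntrk3 most like Fam160a2 (0.83), Kndc1 (0.82) and Ryr2 (0.81). For Ntf3 these were Gmpr (0.81), Zfp27 (0.81) and Blvra (0.8), and for Ngfr Bcam (0.87), Abhd2 (0.86) and Slc5a6 (0.86). Cck was most like Ppp1r17 (0.81), a Purkinje cell marker, Ywhah (0.78) and Trappc5 (0.78), and Cckbr most like Gm42504 (0.84), Cdh5 (0.83) and Bgn (0.83). The points share library depth, composition of the dissected tissue and genotype, and the highest of many correlations is high by choice.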

How the data were processed

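RNA of 24 cerebella was sequenced, 1 library per mouse. The authors used Trimmomatic 0.36 for trimming and STAR 2.7.2d for alignment to GRCm38.p6, and deposited STAR's raw counts per gene, made before their batch correction. The unstranded counts were used. Symbols came from GENCODE M21 for 54079 of 54232 identifiers, and 1 row that names no mouse gene (at most 7.4e-05% of fragments) was left out. Batches were inferred by k-means (k = 2, 50 starts, mean silhouette 0.634) on 4 shares per library (fragments unmapped, mapped to several places, outside annotated genes, or ambiguous between genes). Unannotated fragments were 9.52% to 12.01% in batch 1 and 5.23% to 6.31% in batch 2.

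Counts were filtered with filterByExpr, scaled by TMM (factors 0.944 to 1.056) and tested in 1 fit of all mice with edgeR 4.0.16 in R 4.3.3 (quasi-likelihood, robust, genotype and batch), with Benjamini-Hochberg adjustment over 22502 genes. Intervals are 95%. The biological coefficient of variation was 12.9%. Counting error is small beside it for members with at least 523 counts per mouse, larger for Ngfr and Cckbr (from 198 and 61 counts), and limits Cckar. The fit was tested on simulated data. The members, gene lists and marker lists were chosen with earlier results of these data known. Named genes are the members, Atxn1, called pathway genes, the 3 pathway genes with the lowest p in SCA1 mice and the 3 genes most like each member. Other pathway genes were named after their values were seen. Alternatives were DESeq2 1.42.0 with a batch term, ComBat-seq (sva 3.50.0) then DESeq2, no batch term, DESeq2 size factors, no filter, only the groups compared, summed stranded counts, an adjusted p under 0.05 with no fold minimum, leaving out each mouse, and, chosen after seeing the data, leaving out WT S776A homozygous replicates 3 and 4.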

Additional observations from a re-analysis of the deposited data

Results flagged for a closer look

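Of the groups of 4 mice, 2 held a value of a member far from the other 3, both for Cckar. Of the 48 groups examined, chance gives about 2.4 such flags. In S776A double mice, replicate 1 had 0.258 CPM (22 counts) of Cckar, against 0.0 to 0.0262 CPM in the others. This mouse also had the highest sums of its group for Purkinje cell genes (8881 CPM against 6683 to 7612), inhibitory interneuron genes (1663 against 1279 to 1425), Bergmann glia and astrocyte genes (2641 against 2288 to 2447) and brainstem and midbrain neuron genes (24.2 against 15.0 to 22.1). It had the lowest of its group for granule cell genes (4279.5 against 4458 to 4662) and oligodendrocyte genes (5493 against 5946 to 6385). WT replicate 1, with Purkinje cell and interneuron sums of 9402 and 1717 CPM, had 2 counts of Cckar. The part of these cells in the value was not tested. In SCA1 S776A mice, replicate 4 had 0.0131 CPM, which is 1 count, against 0 in the others.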

How the results depend on the processing

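The count of called members was 0 of 7 in all 9 comparisons of genotypes under every alternative that was run. The count over all genes did change. In SCA1 against WT it was 39 in the main fit, 66 with DESeq2 and a batch term, and 127 with ComBat-seq then DESeq2. It was 68 with only the groups compared, 71 without homozygous replicates 3 and 4, and 21 to 56 over single mice left out. Of 1216 fold changes of members recomputed under alternatives, 1181 kept their direction and 35 uncalled ones changed sign, none beyond 0.26 in size. No paired analysis was possible because the replicate numbers are given in accession order and pair no mice across genotypes.

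With no batch term, SCA1 mice had -0.23 for Bdnf, -0.1 for Ntf3 and 0.16 for Ntrk3 (log2 fold change against WT), with Cckbr at -0.65 and Cck at -0.35. SCA1 S776A mice had -0.04, -0.26 and 0.25, and S776A double mice -0.06, -0.23 and 0.24, in the same order. The mean of the expanded genotypes had -0.11 for Bdnf and -0.2 for Ntf3, and homozygous mice had 0.19 for Bdnf. This setting pools WT mice that differ between batches. Without homozygous replicates 3 and 4, homozygous mice had -0.19 for Ntf3, 0.06 for Ntrk3 and 0.09 for Ngfr.

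Leaving out each mouse in turn gave, against WT, -0.03 to 0.29 for Bdnf in SCA1 and -0.17 to 0.08 in homozygous mice, -0.1 to 0.01 for Cck in SCA1 S776A and -0.07 to 0.03 in S776A double mice, -0.12 to 0.03 for Cckbr and -0.11 to 0.19 for Ngfr in SCA1 S776A mice, -0.05 to 0.14 for Ntf3 in homozygous mice, -0.09 to 0.05 for Ntrk2 in S776A double mice, and -0.08 to 0.02 for Ntrk3 in SCA1 S776A and -0.11 to 0.02 in S776A double mice. Ngfr in SCA1 S776A against SCA1 was -0.3 to 0.0.

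Pathway genes called rose from 0 to 1, Plcb3, in SCA1 and in the mean of the expanded genotypes against WT with DESeq2 and a batch term, ComBat-seq then DESeq2, only the groups compared, and without homozygous replicates 3 and 4. The count was 0 to 1 over single mice left out, with 1 without homozygous replicate 4 (adjusted p = 3e-05 and 0.000145 in edgeR). In SCA1 it was also 1 at an adjusted p under 0.05 with no fold minimum. With 4 mice per group, the intervals give the differences that the data leave room for. The smallest difference that could have been detected was not computed, and Cckar is limited by depth.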
